A study of Rattus norvegicus with 6 samples.

Results

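Of the 22250 rows marked protein_coding in the deposited table of 34156 rows, 116 held at least 10 raw counts in each of the 3 TNF-α+EMO libraries and at most 3 in each of the 3 TNF-α libraries, and were chosen by these raw counts. They made up 0.521% of the protein_coding rows. Gene names beginning with Cyp, Ugt, Gst, Sult, Itg, Krt, Cldn, Pcdh, RT1-, Hist, Tnf, Wnt, Col, Hox or Sema were passed over by the same rule, which left out 7 rows with such counts (RT1-DOb, Col6a5, Cldn4, Cyp4b1, Col6a4, Colec11 and Itgam). The 116 genes are called the emodin-only genes here, a name that covers these libraries at this depth. Because the counts themselves chose the genes, every difference between the groups in these genes is a description. They stood in the fit across all genes, but their own calls there support nothing and were left out of the counts of called genes in marker lists.

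The cells were wild-type rat fibroblast-like synoviocytes labelled as rheumatoid arthritis (RA-FLS), bought from a cell supplier and grown to the 4th passage. In the TNF-α group the medium held 10 ng/mL TNF-α, the cytokine that drives inflammation in the rheumatoid joint, and in the TNF-α+EMO group it held the same TNF-α plus 80 μmol/L emodin (EMO), an anthraquinone of rhubarb root. All libraries were thus from TNF-α-treated cells, and neither group was free of TNF-α. The labels give day 5 for every library, whereas the methods describe an incubation within a single day. The methods call the 3 libraries of a condition biological replicates without saying whether they came from separate cultures, so the spread between them may in part be technical.

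Many protein-coding genes of a genome are silent in any given cell type. Tissue-restricted genes, such as receptors of lymphocytes, proteins of motile cilia or hormones of the placenta, are kept off outside their own tissue by closed chromatin, by repressors and by the absence of the activators they need. Many of their promoters are poor in CpG dinucleotides, whereas the promoters of genes used in all cells mostly lie in CpG islands. Tissue-restricted genes often stand in clusters of duplicated genes, of which a cell may use some copies and not others.

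The libraries held 17185322 to 17794455 counts with EMO and 16813322 to 16982023 without it, so a difference in depth was small beside the differences described. The labelled cell type was checked against 19 synovial fibroblast markers, of which 14 had enough counts for a test. With EMO 12 of these 14 fell and 1 rose, with a median log2 fold change of -4.68 against -0.01 over all 13614 tested genes. Of all tested genes 27.8% fell and 19.5% rose. Vcam1, the adhesion molecule of activated synoviocytes, had 45, 42 and 46 counts with EMO and 11930, 12177 and 12120 without it (log2 fold change -8.02, SE 0.08, edgeR's quasi-likelihood test, adjusted p = 8.1e-13). Col3a1, a fibrillar collagen chain, had 32, 27 and 19 counts against 11788, 11700 and 12249 (log2 fold change -8.76, SE 0.12, adjusted p = 1.5e-12 by edgeR). Fap, fibroblast activation protein, was unread in every TNF-α+EMO library and had 27, 42 and 27 counts without EMO. Thy1 and Prg4, which define the sublining and the lining of the synovium, were near 0 in both groups, with at most 7 and 4 counts in any library. The mitochondrial rows held 0.363% to 0.399% of counts with EMO and 3.35% to 3.58% without it. Whether the groups held the same kind of cells cannot be told apart from the treatment in this design, and this limits what each value here says of emodin. The part of these differences in the emodin-only genes was not tested, and in a bulk library fewer cells of a type and less RNA per cell cannot be told apart.

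Reads were spread unevenly over the 116 genes. In raw counts, their sum was 12480, 12232 and 12267 in the TNF-α+EMO libraries and 76, 61 and 70 in the TNF-α libraries. The first of these sums is 0.0726% of its library. In edgeR's fit over 13614 genes, 19.5% were called higher with EMO (adjusted p below 0.05 with a log2 fold change beyond 1 in size), and 47.3% were called in either direction. All 116 emodin-only genes were tested and called, which their counts fixed. Of the 116, 49 had 0 counts in every TNF-α library, and the highest TNF-α count was 1 in 26, 2 in 19 and 3 in 22 genes. The mean normalized count with EMO (counts scaled to a common effective library size) ran from 11.3 to 2245 with a median of 31.0. It reached 100 in 21 genes and stayed under 20 in 31. Klra2 alone held 17.8% of the summed counts, and the 5 highest genes held 48.4%. Per length the genes were low, with a median of 0.837 RPKM (reads scaled to gene length and library size) with EMO against 10.8 over the 12098 tested protein-coding genes. Their gene lengths did not stand apart, with a median of 2364 bases against 2388.

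The highest of the 116 was Klra2 (ENSRNOG00000031515, chr4:165424763-165460075, minus strand in the deposited coordinates, which are Rnor_6.0 by the submitters' notes), a killer cell lectin-like receptor of the natural killer gene complex. It had 2343, 2299 and 1929 raw counts with EMO, and no TNF-α library held a read of it. That puts it at least 766-fold higher with EMO, reckoned against 3 reads per library. Its level was 36.5 ± 3.97 RPKM (SD, n = 3). The groups lay far apart, and the EMO libraries agreed within a CV of 10.9%.

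Vwa2 (chr1:277689729-277730389) encodes a secreted protein with von Willebrand factor A domains that is found in basement membranes. It had 1401, 1408 and 1504 counts with EMO, and its only TNF-α reads were 3 in replicate 1. Atp13a4 (chr11:74834050-74968336) encodes a P5-type transport ATPase. It had 1069, 1058 and 966 counts with EMO and 1, 0 and 1 without it. Arhgef16 (chr5:171624796-171648563), a guanine nucleotide exchange factor, had 704, 724 and 769 counts with EMO against 1, 0 and 0. The libraries with EMO differed little in these 3 genes, with CVs of 3.50%, 6.01% and 3.96%.

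Lcn3 (chr3:2945504-2947318) encodes a lipocalin, one of the small secreted carriers of hydrophobic molecules, and is short. It had 538, 518 and 678 counts with EMO and was likewise unread without it, so it was at least 202-fold higher. Per length it was the highest of the 116, at 66.8 ± 9.75 RPKM (SD, n = 3), although 1682 of the 12098 tested protein-coding genes lay above that level with EMO. Gdf15 (chr16:20555395-20557978), the stress-induced hormone that acts on appetite through the receptor GFRAL, had 521, 532 and 643 counts with EMO. In the TNF-α libraries it had 2, 2 and 1, a ratio of summed counts of 356 (95% exact counting interval 152 to 1097).

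Dnah12, a heavy chain of the inner dynein arms of motile cilia, varied more, with 420, 356 and 268 counts with EMO against 3, 0 and 1. Scgn, the calcium sensor secretagogin of neurons and neuroendocrine cells, had 371, 343 and 315 counts against 1, 1 and 2. Ribc2, a protein inside the ciliary doublet microtubules, had 220, 187 and 241 counts against 0 in each TNF-α library. Npc1l1, the intestinal cholesterol importer that ezetimibe blocks, had 167, 172 and 176 against 0, 1 and 0. The remaining genes of the 20 highest were Itpkb, Cpeb1, Sdcbp2, Wdr63 (current symbol Dnai3), Rftn2, LOC689599, Tmprss11d, Ighm, Cpz and Gzmbl3, with means from 108.6 to 309.6 normalized counts. In the TNF-α libraries none of these 20 had more than 3 reads in a library.

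**Figure D1:**
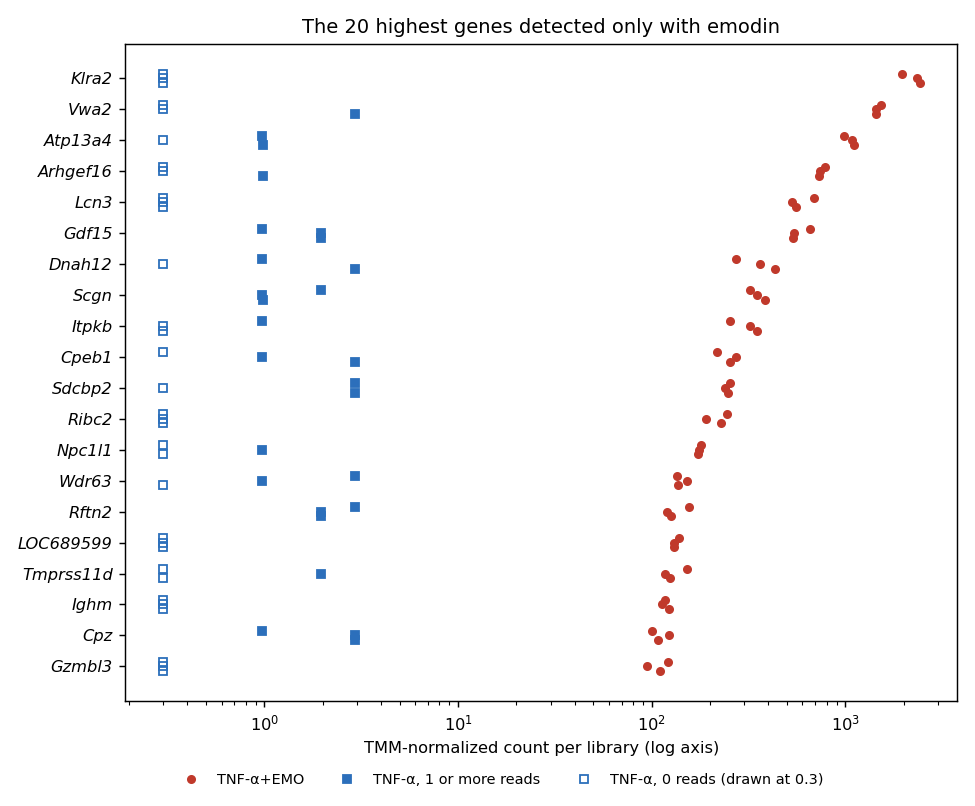
TMM-normalized counts (log axis) of the 20 emodin-only genes with the highest mean, 1 point per library, with circles for the 3 TNF-α+EMO libraries and squares for the 3 TNF-α libraries. The circles run from about 2245 for Klra2 to 108.6 for Gzmbl3 on average, every square lies at or under 3, and open squares stand for 0 reads.

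The promoters of the emodin-only genes were mostly poor in CpG, a feature that the counts did not use. RefSeq windows of build GRCr8, from 250 bases before to 50 bases after the annotated start, were matched by symbol or synonym for 82 of the 116 genes. The windows of the following genes are shown because they were among the 6 highest genes with a window and cover both kinds of promoter. Capitals mark CpG dinucleotides.
Klra2 (chr4:166716753-166717052, minus strand): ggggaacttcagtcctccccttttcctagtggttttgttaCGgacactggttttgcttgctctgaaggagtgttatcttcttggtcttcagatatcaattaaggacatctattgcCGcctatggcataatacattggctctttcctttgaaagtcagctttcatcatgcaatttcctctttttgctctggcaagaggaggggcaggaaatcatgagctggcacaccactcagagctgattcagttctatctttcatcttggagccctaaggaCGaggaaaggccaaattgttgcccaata
Lcn3 (chr3:28941048-28941347, minus strand): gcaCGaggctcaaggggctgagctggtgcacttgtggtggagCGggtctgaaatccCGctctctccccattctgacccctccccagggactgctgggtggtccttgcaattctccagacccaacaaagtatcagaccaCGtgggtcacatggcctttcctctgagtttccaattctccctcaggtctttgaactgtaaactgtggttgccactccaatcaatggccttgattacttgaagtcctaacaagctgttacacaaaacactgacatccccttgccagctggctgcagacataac
Gdf15 (chr16:18838186-18838485, plus strand): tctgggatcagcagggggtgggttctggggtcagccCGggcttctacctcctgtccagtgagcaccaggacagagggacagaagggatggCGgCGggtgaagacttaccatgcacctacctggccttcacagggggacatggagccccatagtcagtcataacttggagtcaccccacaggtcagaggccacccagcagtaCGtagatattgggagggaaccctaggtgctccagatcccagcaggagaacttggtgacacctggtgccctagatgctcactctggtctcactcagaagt
Arhgef16 (chr5:170148575-170148874, minus strand): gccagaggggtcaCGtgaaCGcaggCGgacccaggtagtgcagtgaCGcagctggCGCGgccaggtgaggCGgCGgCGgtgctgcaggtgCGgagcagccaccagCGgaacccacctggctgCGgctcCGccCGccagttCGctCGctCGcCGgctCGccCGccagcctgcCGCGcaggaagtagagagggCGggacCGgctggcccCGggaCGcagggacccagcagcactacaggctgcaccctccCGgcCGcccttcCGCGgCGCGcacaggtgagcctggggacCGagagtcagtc
The first 3 windows held 3, 4 and 4 CpG dinucleotides, with an observed over expected ratio of 0.198, 0.194 and 0.156, whereas that of Arhgef16 held 33 with a ratio of 0.797.

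Over the 82 windows the median CpG ratio was 0.359, against 0.780 over the windows of 9427 tested protein-coding genes and 0.654 over all 15152 matched protein-coding genes. A ratio of at least 0.6, as in a CpG island, was found in 28.0% of the 82 windows (23 windows), against 74.1% and 54.7%. The median GC content was 54.8% against 61.0% and 58.0%. The 17 genes with a mean of at least 100 normalized counts and a window had a median CpG ratio of 0.308, and the other 65 had 0.365, so low CpG content was seen at both levels. The ratio was 0.397 over 256 windows of the genes that met the rule with the groups exchanged (367 genes, detected only without EMO), which is the set most like this one. The low ratio was therefore shared by genes seen in either group alone.

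By class, the median ratio was lowest in the windows of placental prolactins (0.0837, 2 windows) and of liver, gut or kidney genes (0.184, 6 windows). It was highest in those of germ cell genes (0.747, 5 windows). Some motifs were searched as exact letters on both strands. The TATA box TATAAA was found in 15.9% of the 82 windows, against 6.50% of tested and 11.5% of all matched genes, and in 12.9% of the exchanged set. The GC box GGGCGG was found in 36.6%, against 63.4% and 49.8%, and in 37.9% of the exchanged set. GCGTG, the core of the element bound by the aryl hydrocarbon receptor, was found in 26.8%, against 50.5% and 40.7%, and in 35.2% of the exchanged set. TGACTCA, the AP-1 site, was found in 7.32% against 3.42% and 3.93%, and in 4.69% of the exchanged set. Further motifs were searched too. The E-box CACGTG was found in 8.54%, against 9.63% and 7.98%, and in 3.91% of the exchanged set. The CCAAT box (34.1%) and the RFX half-site GTTGCC (9.76%) were less frequent than in each of the other sets. The GC box and GCGTG both hold a CpG, so their shares move with CpG content. A match of letters is not a bound site.

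**Figure D2:**
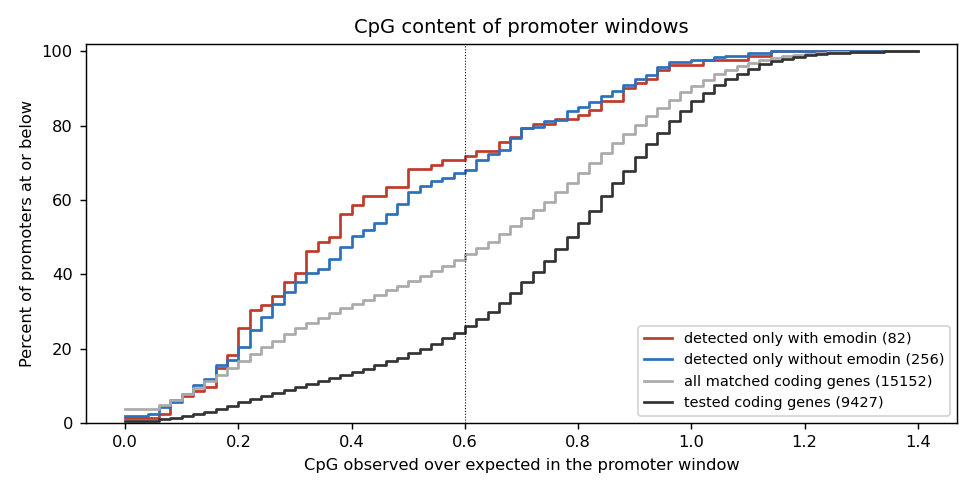
Cumulative share of promoter windows (percent, vertical) at or below a CpG observed over expected ratio (horizontal) for 4 sets of genes, with a dotted line at 0.6. The curves of the emodin-only genes (82 windows, median 0.359) and of the genes detected only without EMO (256 windows, median 0.397) rise together, to the left of all matched genes (median 0.654) and of tested genes (median 0.780).

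The tissue in which each gene is best known was assigned by hand from gene names, after the members had been seen, and 70 of the 116 could be classed. No tissue held most of them. Blood or immune cells and neurons or sensory cells had 14 each, epithelium or epidermis 12, motile cilium or sperm tail 7, and liver, gut or kidney 7. Germ cells had 6, striated muscle 4, secreted growth factors or hormones 4, and the placental prolactin family 2. Class medians ran from 22.2 to 64.2 normalized counts, and the ranges of the classes overlapped. The counts of called genes in the marker lists below stand against 19.5% higher and 27.8% lower over all tested genes. Most lists held few tested genes, and no list was tested as a set. Summed levels of a list include its members, whose rise the rule fixed. Genes that earlier results of these data had named, and that were known to be members, were kept out of the lists. How many members a list holds is therefore not informative.

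**Figure D3:**
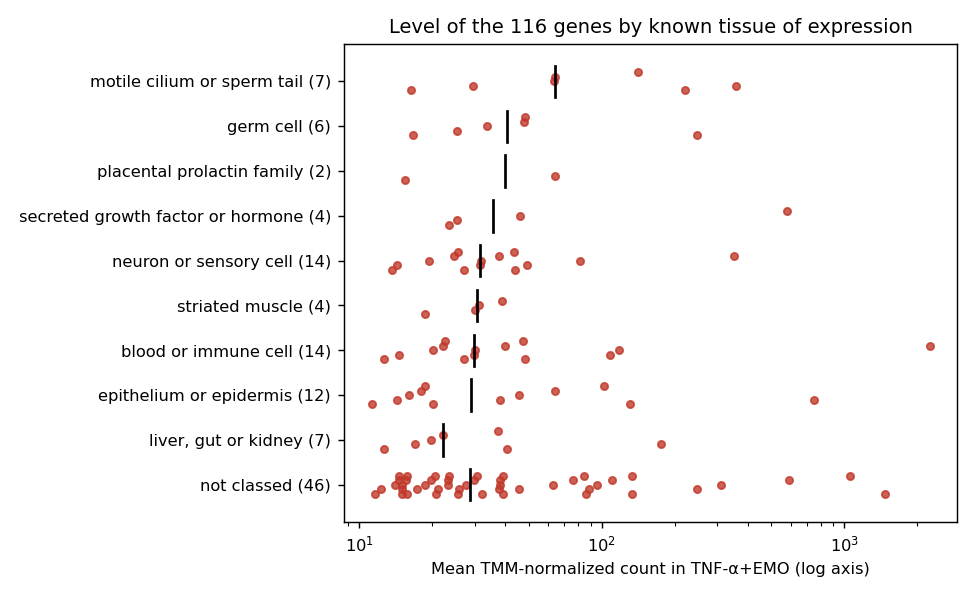
Mean TMM-normalized count with EMO (log axis) of each of the 116 emodin-only genes, 1 point per gene, by the tissue in which the gene is best known, with the number of genes in brackets and a black bar at the median. Classes overlap throughout, from a median of 22.2 for liver, gut or kidney genes to 64.2 for genes of the motile cilium or sperm tail.

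Among the immune genes, Klra2, Ighm and Gzmbl3 were the highest. Ighm, the constant region of the IgM heavy chain, had 119, 111 and 115 counts with EMO, and Gzmbl3, a granzyme B-like protease, had 107, 92 and 119. Neither had a read in a TNF-α library. Siglec1, a sialic acid receptor of macrophages, had 54, 53 and 34 counts against 0, 0 and 2. Laptm5, a lysosomal protein of hematopoietic cells, had 29, 49 and 39 against 1, 0 and 0. Cytokine receptor genes Il9r, Il7r and Il5ra had means of 30.0, 22.2 and 22.6 normalized counts and no TNF-α read, and Il27, an immune cytokine subunit, had 20.1. The remaining immune genes were Atp2a3, Cd300lf, Clnk, Cd300c2 and RGD1559482, at 12.6 to 47.4.

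Beside these, several defining markers of blood cells had no read. Ptprc (CD45), which all white blood cells carry, had 0 counts in each TNF-α+EMO library and at most 1 without EMO. Cd3d, Ms4a1, Nkg7, Klrd1 and Tyrobp had 0 counts in all 6 libraries. Other markers were read in both groups, such as Cd68, a lysosomal protein abundant in macrophages, with 259, 239 and 253 counts against 155, 172 and 142 (not called), and Spi1, a transcription factor of myeloid cells, with 4, 5 and 8 against 13, 5 and 3. Of 29 blood and immune markers in the table, 15 had at most 3 counts in every library. The summed level of the list was 27.9 to 29.6 CPM (counts scaled by library size to the usual common total) with EMO and 31.6 to 34.3 without it, with the member Laptm5 and with Itgam, which met the count limits and was passed over by name. Of the other 3 tested genes 1 rose (Lcp1), 1 fell (Cd48) and 1 was not called, with a median log2 fold change of 0.75.

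Genes of neurons and sensory cells were led by Scgn, followed by Mrgprx1, a receptor of itch-sensing neurons, with 79, 79 and 81 counts against 0, 0 and 1. Cabp2, a calcium-binding protein of hair cells, had 31, 47 and 67 counts and no TNF-α read. Voltage-gated potassium channel genes Kcnh8 and Kcnh1 had means of 44.1 and 19.5 normalized counts. Shank2, a scaffold of the postsynaptic density, had 17, 43 and 51 counts against 1, 0 and 0. Of 40 neuron and synapse markers none was a member, 22 had at most 3 counts in every library, and Syp, Stmn2 and Tubb3 had 0 in all 6. The list summed to 274 to 277 CPM with EMO and 287 to 303 without. Of 9 tested, 1 rose (Cplx2), 4 fell and 4 were not called (median -0.27).

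Genes of epithelium or epidermis were led by Arhgef16, Tmprss11d (120, 115 and 150 counts against 0, 2 and 0), a serine protease of the airway surface, and Myo5b (117, 101 and 80 against 1, 3 and 0), a motor that carries recycling vesicles to the apical membrane. AABR07072759.1 (described as trichohyalin-like 1), a gene of the epidermal differentiation complex, had 75, 70 and 43 counts and no TNF-α read. Acer1, Sgpp2 and Degs2, which act in ceramide and sphingosine metabolism, had means of 45.4, 37.9 and 20.1 normalized counts. Epcam, Esrp1 and Cldn7, which define epithelia, had 0 counts in all 6 libraries, whereas the keratin gene Krt8 was read in both groups (1908, 2099 and 2262 counts against 10630, 10193 and 11087) and fell. The epithelial list of 30 genes, with no member, summed to 159 to 190 CPM with EMO and 867 to 928 without. Cldn4 met the count limits and was passed over by name, and of the other 10 tested 2 rose (Ovol1 and Spint1), 4 fell and 4 were not called (median -0.40).

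The 7 genes of the motile cilium or sperm tail were Dnah12, Ribc2, Wdr63, Enkur, Ttc29, Dnai1 and Dnaaf1. Wdr63, an intermediate chain of an inner dynein arm, had 132, 148 and 132 counts against 0, 1 and 3. Enkur and Ttc29, of the axoneme and sperm tail, had means of 64.2 and 63.9. Dnai1, an outer arm intermediate chain, had 28, 33 and 25 counts against 3, 0 and 2. Of 35 cilium and axoneme markers, 12 were tested besides the member Dnai1. Of these 5 rose (among them Rsph1 and Ribc1), 2 fell (Mns1 and Dnai2) and 5 were not called, with a median of 0.46. Over all tested genes 19.5% rose and 27.8% fell. Other parts of the axoneme stayed unread, with Rsph4a, Spag16 and Tekt1 at 0 counts in all 6 libraries. Mcidas, an activator of multiciliated cells, had 37, 13 and 38 counts against 9, 8 and 4 and rose (log2 fold change 2.12, SE 0.50, adjusted p = 0.0023 by edgeR). The list summed to 64.2 to 72.3 CPM with EMO and 44.6 to 45.1 without.

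Germ cell genes were led by Cpeb1, which controls poly(A) tails of oocyte mRNAs, with 247, 265 and 213 counts against 3, 1 and 0. Rbm44, Abca14, Spata48, Tdrd9 and Dydc1 followed with means from 16.7 to 48.2. Of 35 testis and germ cell markers, 26 had at most 3 counts in every library, and besides the member Tdrd9, a helicase of the piRNA pathway, 2 were tested and fell (Sycp2 and Sycp3). The call of Sycp3 (log2 fold change -1.03, adjusted p = 0.027 by edgeR) was lost with DESeq2 (adjusted p = 0.092), when edgeR was blocked on replicate number (adjusted p = 0.062), with no filter on low counts (adjusted p = 0.053 by edgeR) and without TNF-α+EMO replicate 3 (-0.83), TNF-α replicate 2 (-0.89) or TNF-α replicate 3 (-1.05, adjusted p = 0.052 by edgeR). The list summed to 2.79 to 3.16 CPM with EMO and 3.91 to 5.79 without. That sum holds Tdrd9, with 21, 23 and 30 counts with EMO and no TNF-α read. The 4 genes of striated muscle were Pvalb, Eef1a2, Ankrd2 and Chrna1, at 18.8 to 39.0. Of 28 muscle markers, 7 were tested besides the members Pvalb and Chrna1, of which 1 rose (Neb), 4 fell and 2 were not called. Myod1 had 0 counts in all 6 libraries, and the list summed to 20.3 to 21.0 CPM with EMO and 13.7 to 16.9 without. That sum holds Pvalb (48, 34 and 32 counts with EMO) and Chrna1 (19, 17 and 19), both without a TNF-α read.

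Genes of liver, gut or kidney were Npc1l1, Nphs1, Apoa4, Mttp, Slc17a4, Itih2 and Ambp. Apoa4, an apolipoprotein of intestinal lipid particles, had 39, 33 and 38 counts, and Mttp, which loads lipid onto apolipoprotein B, had 26, 24 and 15. Nphs1, the slit diaphragm protein nephrin, had 45, 28 and 46, and none of these 3 had a TNF-α read. Of 21 liver markers, 3 were tested besides the member Ambp, of which 2 rose (Tf and Serpina1) and 1 fell (Hpx). Alb had 1 count in all 6 libraries together, Apob and F2 had 0, and the list summed to 163 to 165 CPM with EMO and 69.5 to 74.2 without. Most of that sum was Tf alone (2447, 2456 and 2513 counts against 1099, 1029 and 1108).

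Secreted factors were Gdf15, Adm2, Fgf21 and Fgf9. Adm2, a peptide of the calcitonin family, had 37, 50 and 48 counts against 2, 0 and 1. Fgf21, a metabolic hormone of the integrated stress response as Gdf15 is, had 18, 29 and 27 against 1 in each TNF-α library. Fgf9, a mesenchymal growth factor, lay nearest to the limit, with 23, 20 and 26 against 3, 2 and 2. Endothelial markers gave no member, and of 4 tested 3 fell (Flt1, Erg and Vwf) and Egfl7 was not called. That list summed to 13.9 to 19.0 CPM with EMO and 36.9 to 41.2 without. Secretory gland markers gave no member either, and of 3 tested 1 rose (Cst3) and 2 were not called. Of the 21 genes of that list, 18 had at most 3 counts in every library. Its sum was 1410 to 1661 CPM with EMO and 319 to 359 without. Most of it was Cst3 alone (22700, 21417 and 25659 counts against 3967, 3327 and 3531). The lists together placed 6 of 273 genes among the members, beside 0.521% of all protein-coding rows. Known members were kept out of the lists, so this count does not show how often such markers are members.

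Some members had relatives with few or no reads in these libraries. The families were chosen after the members were seen, by the start of the symbol, and so carry no test. Tmprss11d was the sole row of the 7 Tmprss11 rows with any read, and the other 6 had 0 counts in all 6 libraries. Lcn3 was the sole member of 10 lipocalin rows, of which 7 had no read, while Lcn2 had 2063, 2199 and 2271 counts against 2195, 2355 and 1972 and was not called (log2 fold change 0.07, SE 0.07), as was Lcn12 (10, 10 and 16 counts against 27, 25 and 17). Of 11 granzyme rows, Gzmbl3 alone passed the filter on low counts, and the others had at most 3 counts in any library. Of 4 Klra rows, Klra2 alone did so, and Klra1 had at most 3.

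Prolactin family genes, which the rodent placenta and decidua express, were read in more than 1 copy. The 22 rows held 2 members, Prl7a3 with 53, 69 and 66 counts against 1, 0 and 2, and Prl8a5 with 24, 10 and 11 against 0. Prl6a1 had 28, 15 and 33 counts against 4, 0 and 1 and Prl8a9 had 7, 23 and 8 against 1, 0 and 1, and 15 rows had 0 in all 6 libraries. Of 10 rows of axonemal dynein heavy chains, besides the member Dnah12, Dnah7 rose (132, 101 and 82 counts against 6, 3 and 6), Dnah1 fell (11, 7 and 18 against 53, 57 and 56), and Dnah11 was read only without EMO (15, 17 and 7 counts). Rows of one family can share reads, and how the counting treated such reads is not given in the sources used here, so the split between copies is uncertain for the Klra, Prl, granzyme and Cd300 genes.

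**Figure D4:**
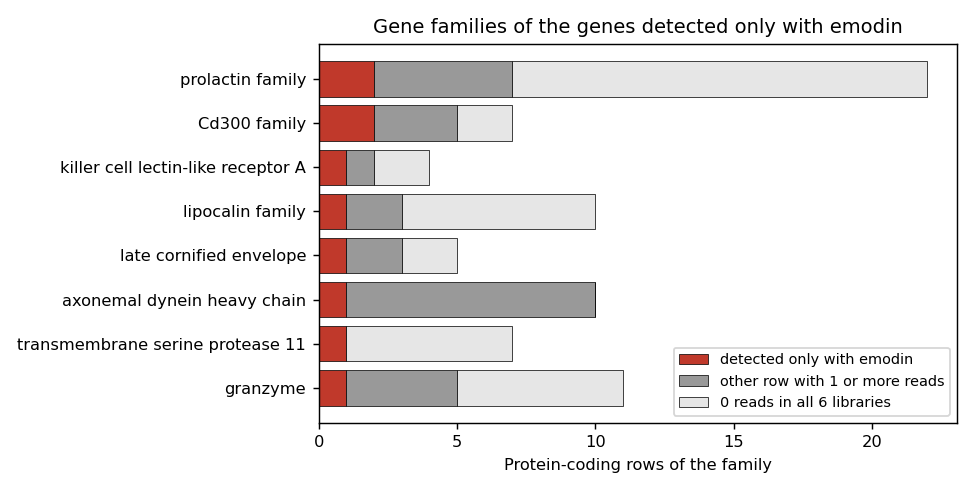
Number of protein-coding rows (horizontal) in each of 8 gene families with an emodin-only member, split into emodin-only genes, other rows with at least 1 read and rows with 0 reads in all 6 libraries. The prolactin family has 22 rows, of which 2 are emodin-only and 15 are without a read, and 6 of the 7 Tmprss11 rows are without a read.

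The genes lay on 22 chromosomes or scaffolds. Chromosome 1 had the most (16 of 2988 protein-coding rows, 0.535%), and chromosome 17 had the most for its rows among the chromosomes (7 of 637, 1.10%), against 0.521% over the table. The emodin-only genes stood mostly apart from each other. In 7 pairs, with 14 members, the genes were adjacent or within 200 kb. On chromosome 17 these were Prl7a3 and Prl8a5, with 142985 bases between them, and Scgn and Slc17a4, with 59232. Tdrd9 and Aspg on chromosome 6 were 32267 bases apart. Lce1f, of the cornified envelope, and AABR07012318.1 lay 92702 bases apart on chromosome 2 with 3 coding rows between, each at no more than 3 counts in any library. AABR07006030.1 (Muc2 in the current nomenclature, the mucin of the intestine) and AABR07006033.1 were 54582 bases apart on chromosome 1 and had 39, 29 and 43 and 48, 26 and 37 counts. LOC500877 and AABR07058124.4, with a gap of 176 bases, and the overlapping RGD1559482 and Cd300c2 lay nearest to each other, and gene rows alone do not show whether each pair is transcribed as separate genes.

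The next expressed genes were examined because they had no part in the rule. For each emodin-only gene the nearest tested protein-coding gene on each side was taken, members and overlapping genes excepted, which gave 212 genes. Of these 50 rose (23.6%), 57 fell (26.9%) and 105 were not called, against 18.8% higher and 27.7% lower over all 12098 tested protein-coding genes. The median log2 fold change was -0.00, against -0.02. Within 50 kb, 25 of 94 rose (26.6%) and 23 fell (24.5%), with a median of 0.13. Beyond 50 kb, 26 of 122 rose (21.3%) and 36 fell (29.5%), with a median of -0.11. Over all 266 tested protein-coding genes within 100 kb, 67 rose (25.2%) and 53 fell (19.9%), with a median of 0.34. The share that rose lay above the background in each of these sets, least so beyond 50 kb, and the difference was not tested. The sets share genes, so they do not repeat the result independently. Neighbours of the genes detected only without EMO numbered 659, of which 15.6% rose and 29.7% fell, with a median of -0.11. The nearest protein-coding row, tested or not, was silent (at most 3 counts in every library) for 80 of 225 neighbours (35.6%), close to the 37.3% of all protein-coding rows.

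**Figure D5:**
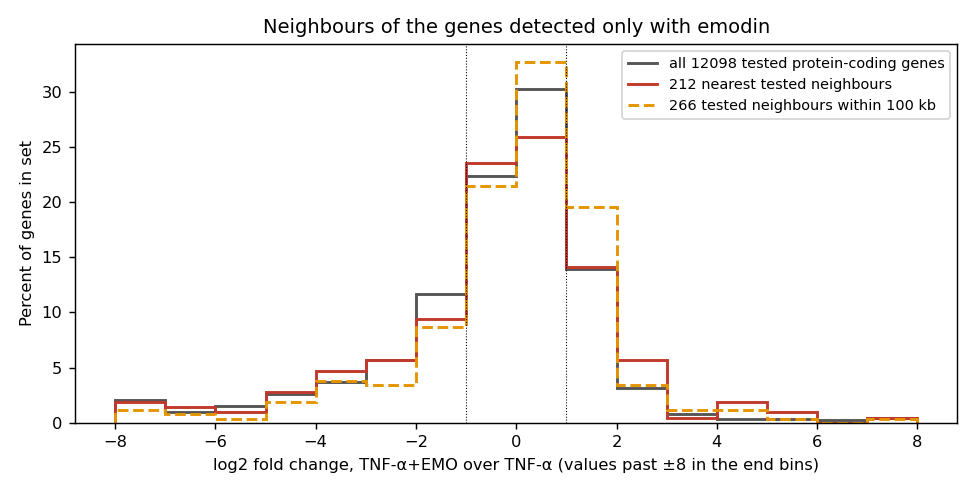
Percent of genes (vertical) by log2 fold change of TNF-α+EMO over TNF-α in steps of 1 (horizontal) for the 212 nearest tested neighbours of the emodin-only genes, the 266 tested neighbours within 100 kb and all 12098 tested protein-coding genes, with dotted lines at -1 and 1. The distributions overlap over their whole range, and the neighbours within 100 kb have a larger share between 1 and 2.

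Some neighbours of the highest genes rose steeply. Mcoln3, a lysosomal cation channel that lies 12571 bases from Wdr63, had 4973, 4770 and 3910 counts with EMO and 10, 6 and 3 without it (log2 fold change 9.53, SE 0.20, edgeR adjusted p = 6.7e-11), far above Wdr63 itself, whereas Syde2 on the other side fell (113, 97 and 65 against 788, 760 and 794). Sohlh1, a transcription factor of germ cells 343766 bases from Lcn3, had 386, 403 and 529 counts against 31, 26 and 28 (log2 fold change 4.02, SE 0.17). Slc17a3, a phosphate and urate transporter near Scgn and Slc17a4, had 74, 72 and 66 against 5, 1 and 4 (4.42, SE 0.40). Plcl1, 480988 bases from Rftn2, had 202, 192 and 132 against 0, 12 and 3 (5.17, SE 0.68, and 6.82 without TNF-α replicate 2). Gabarapl1, an autophagy protein and the nearest tested gene to one side of Klra2 at 2121905 bases, had 5819, 6515 and 7826 counts against 790, 782 and 865 (3.12, SE 0.11).

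Other neighbours fell. Fbln1, a fibulin of the extracellular matrix 52946 bases from Ribc2, had 110, 119 and 116 counts against 1369, 1310 and 1259 (log2 fold change -3.44, SE 0.09). Ap3b2, 5511 bases from Cpeb1, had 79, 109 and 90 against 261, 277 and 309 (-1.54, SE 0.15). Carmil1 next to Scgn, Tmem121 next to Ighm, Ssbp4 next to Gdf15, Mb21d2 next to Atp13a4 and Cenpj next to Gzmbl3 also fell, with log2 fold changes of -1.01 to -2.32. Ccdc186 next to Vwa2, Tprg1l next to Arhgef16, Tmem141 next to Lcn3, Fkbp1a next to Sdcbp2, Trmt44 next to Cpz and Sdr39u1 next to Gzmbl3 rose, with values of 1.07 to 1.70. Without TNF-α+EMO replicate 3 or without TNF-α replicate 1, Mb21d2 had a log2 fold change of -0.98 or -0.92, short of the threshold. Tprg1l (0.98) and Tmem141 (0.93) also missed it without TNF-α+EMO replicate 3. Ssbp4 missed it without TNF-α+EMO replicate 1 (-0.89) or 2 (-0.98) or TNF-α replicate 1 (-0.93).

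Overlap with other gene spans on any strand was about as frequent as in other genes. Of the 116 genes, 23 (19.8%) shared at least 1 base with another row of the table, against 19.0% of all protein-coding rows, 21.9% of tested ones and 18.5% of the genes detected only without EMO. An overlap on the same strand was seen in 14 genes (12.1%, against 7.91% of all protein-coding rows, 9.10% of tested ones and 8.45% of the genes detected only without EMO). These include Cd300c2 and RGD1559482, counted for each other. They also include Ribc2, Enkur, Epha10 and Fer1l6, whose same-strand partners had 0 counts in every library. The difference in share was not tested. An overlap on the opposite strand was seen in 14 (12.1%, against 12.9%, 14.7% and 12.3%). The 23 genes had 47 overlapping partners, of which 29 had 0 counts in every library. A partner with at least 10 counts in a library was found for 11 genes (9.48%, against 10.1% of tested protein-coding rows). Of the 15 such partners, 5 rose, 1 fell, 7 were not called and 2 were not tested. Over all tested protein-coding genes 18.8% rose and 27.7% fell. The 5 that rose include Cd300c2 and RGD1559482, which are themselves emodin-only genes, so the rule fixed their rise. The strand setting of the counting is not given in the sources used here, so reads of overlapping genes cannot be told apart.

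In some of these genes a counted partner was not called or fell. Kctd4 lies within Gtf2f2 on the opposite strand and had 87, 78 and 82 counts against 3, 2 and 0, whereas Gtf2f2, a general transcription factor subunit, had 822, 823 and 768 against 754, 771 and 764 (log2 fold change 0.15, SE 0.07, not called). Atp13a4 spans LOC100360218 on the other strand, which had 36, 37 and 87 counts with EMO and 121, 165 and 55 without it and was not called. Atp2a3, a calcium pump, had 39, 42 and 58 counts against 3, 1 and 0, whereas Itgae on the same strand fell (17, 33 and 17 against 82, 67 and 78). Npc1l1 has a long deposited span that holds Ddx56 and Tmed4, of which Ddx56 rose (931, 960 and 1050 against 434, 403 and 418) and Tmed4 was not called (1500, 1581 and 1570 against 1263, 1256 and 1203). LOC103693780 and LOC103693776, on the opposite strand of Npc1l1, were not called either. Il27 shares 157 bases with Apobr, which had 9, 12 and 12 counts against 24, 17 and 14.

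In other genes a counted partner had more counts with EMO. RGD1561113 (current symbol Bbln), with 10, 12 and 12 counts against 2, 3 and 1, overlaps Ciz1, which had 4673, 4921 and 4728 against 1016, 1019 and 1025 and rose (log2 fold change 2.30, SE 0.06). On average its normalized count was 11.6, against 4890 for this partner. Serpina3c, a serpin with 25, 27 and 42 counts against 0, 0 and 1, overlaps LOC299282 on the opposite strand, with 38, 46 and 29 against 4, 4 and 5. Prl8a5 overlaps Prl8a9 on the same strand. Cd300c2 overlaps RGD1559482 on the same strand as well, but both are emodin-only genes, so the rule fixed that they moved together. Ighm, whose deposited span covers 607850 bases, overlaps Igh-6, which had 11, 7 and 12 counts against 0 and was not tested. It also overlaps LOC100910275, which did not move the same way and was not called (6, 11 and 16 against 21, 14 and 10).

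Between libraries with EMO the median CV of these genes was 18.9%. It was 10.0% over the 12332 tested genes at or above the lowest mean of a member. That set holds genes with far higher counts, and counts were not matched. The comparison therefore does not show more variation in these genes at a like level. The CV was highest in Inka2 (27, 22 and 66 counts, 62.3%), Prl8a5 (52.7%), Il5ra (27, 29 and 10 counts, 47.7%), Shank2 (47.6%) and Eef1a2 (22, 23 and 47 counts, 45.6%). No library carried the set, since 44, 31 and 41 of the genes were highest in EMO replicates 1, 2 and 3 after scaling.

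The edge of the set was not sharp. The 5 members with the lowest EMO count were Lce1f (10, 10 and 13 counts), RGD1561113, Znf354b (15, 10 and 11), RGD1559482 (10, 11 and 16) and Ambp (14, 13 and 10). Just outside, 61 genes had a smallest EMO count of 5 to 9, and 28 had 4 or 5 counts in a TNF-α library. Of the latter, Nos3, the endothelial nitric oxide synthase, had 161, 209 and 281 counts against 2, 3 and 4, and LOC100911456, Slc17a3, Coa8 and Clec10a followed. Of those with an EMO library under 10, Rpl35al1 had 500 counts in EMO replicate 2 and 0 in the others, and LOC103690002, AABR07039446.2, NEWGENE_1582994 and Adamts20 had means of 17.8 to 19.7.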

How the data were processed

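RNA of rat RA-FLS was sequenced as 6 poly(A)-selected paired-end libraries (3 TNF-α+EMO, 3 TNF-α). The submitters' processing notes name FastQC, Trimmomatic, HISAT2 and the build Rnor_6.0. The counting program, annotation release and strand setting are not given in the sources used here. The authors deposited raw counts per gene for 34156 rows, and all results come from these. The deposited FPKM values, and the authors' own columns of group means, log2 fold changes and p-values, were not used.

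A filter of 10 or more counts in 3 or more libraries kept 13614 genes. TMM scaling was followed by the robust quasi-likelihood F test of edgeR 4.0.16 (R 4.3.3), with p-values adjusted by Benjamini-Hochberg across the kept genes. A gene was called when its adjusted p was below 0.05 with a log2 fold change beyond 1 in size, and every adjusted p and SE in the text is from this fit. The common biological coefficient of variation was 0.121. With 3 libraries against 3 an exact permutation test cannot go below 0.1, and the p-values here borrow the spread of other genes. A fold against libraries at 0 was computed against 3 counts per library, and ratios of summed counts have 95% exact intervals. Both cover counting error only.

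The members and lists were chosen with earlier results of these data known, and genes known from them to be members were kept out of the lists. Genes named are the 20 members with the highest mean, list members, the 5 with the lowest EMO count, adjacent members, members with a counted overlapping partner, the 5 with the highest CV, genes nearest the limits, called neighbours of the 20 highest and called list genes with the largest change, and some genes that this rule names are not reported here. Further members and list genes were named after their values were seen. Gene classes (70 genes), families and the motifs shown were chosen after the members were seen. Promoter windows and current symbols come from RefSeq (GRCr8), whose coordinates were used for no overlap or distance. Replicate numbers were not found to pair the samples. The alternatives were other count limits, DESeq2 1.42.0, other scalings, filters and fold thresholds, a replicate block and leaving out each library.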

Additional observations from a re-analysis of the deposited data

How the results depend on the processing

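The number of emodin-only genes follows its limits. It was 116 as reported, 177 with at least 5 counts in each EMO library, 69 with at least 20 and 49 with 0 counts in each TNF-α library, and 124 to 132 without each library in turn. All 116 were found again when the limits were put on TMM-normalized counts. Of all genes tested, 6442 were called as reported, 11008 without a fold threshold and 3064 with an absolute log2 fold change over 2, and the share of calls that were higher was then 26.4%. Neighbours called higher numbered 50, and 90 without and 20 with the stricter fold threshold. Neighbours called lower numbered 57, and 90 and 37. Their median log2 fold change was -0.00 as reported, -0.12 with library totals only, where the median of all genes also moved to -0.12, 0.19 with no filter beyond 1 count, 0.34 within 100 kb and -0.058 to 0.028 without each library. Genes on the tissue lists, members included, called lower numbered 54, against 33, with no filter beyond 1 count, and those called higher numbered 9, against 22, with a filter of 50 counts in 3 libraries. Overlapping members numbered 14 on either strand alone and 11 with a partner counted in an EMO library. Deviations of same-numbered libraries correlated at -0.00683 to 0.0676, and those of other pairs of libraries at -0.0701 to 0.0528. Pairing by number was thus not found, although 3 such correlations cannot exclude it. The replicate block gave 6421 calls. DESeq2 gave 6409. With library totals only, Tprg1l, Tmem141 and Sdr39u1 missed the fold threshold. The cause of these shifts was not tested, except that thresholds and filters set counts by construction. Depth limits the TNF-α group, where 0 counts allow up to 3 reads per library.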

Other observations

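Outside the protein-coding rows, 47 rows met the same count limits, of which 36 were unnamed transcripts without a biotype. AABR07026032.3, a lincRNA row, had 347, 340 and 330 counts with EMO and no read without it, and AABR07026032.1, of the same contig by name, had 188, 220 and 234 against 0, 2 and 0.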
